A study of Mus musculus with 12 samples.

Results

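Cyclins are the regulatory subunits that switch on cyclin-dependent kinases, and 10 mouse genes of this system are described here: the D-type cyclins Ccnd1, Ccnd2 and Ccnd3, the E-type cyclins Ccne1 and Ccne2, the A-type cyclin Ccna2, the B-type cyclin Ccnb2, and the kinases Cdk1, Cdk2 and Cdk4. The genes were listed by name, and every probe set that the platform annotation ties to 1 of them alone was taken. That gave 21 of the 22690 probe sets and 10 of the 12393 genes measured, with 7 probe sets for Ccnd2, 3 each for Ccnd1 and Cdk4, 2 for Ccna2 and 1 for each of the others.

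The study followed breast cancer formation in WAP-SVT/t mice, which carry the SV40 large T and small t antigens on the NMRI background, made selectively in the epithelial cells of the mammary gland per the labels. The promoter of the whey acidic protein (WAP) gene, a milk protein gene, drives the transgene. RNA of 12 samples was hybridised to 1 single-color array each. The groups were 3 cell lines derived from breast cancer, 3 WAP-SVT/t tumors, 3 mammary glands of lactating female WAP-SVT/t mice (transgenic glands) and 3 glands of lactating female NMRI mice without the transgene. All 6 glands were taken on day 1 of lactation. The lines were ME-A, ME-B-T/t, which the labels call retransformed, and ME-B, which they call revertant, with 1 array for each line. No label gives the age of the animals, and the tumors have no stage of lactation in the labels.

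D-type cyclins are made in response to growth signals, bind Cdk4 and Cdk6 and start the phosphorylation of the retinoblastoma protein RB in G1. E2F factors, held back by RB, then drive genes for DNA synthesis and for the E- and A-type cyclins. Cyclin E with Cdk2 acts at entry into S phase, cyclin A2 with Cdk2 and Cdk1 in S and G2 phase, and B-type cyclins with Cdk1 in mitosis. In the mouse mammary gland, Ccnd1 is known for its need in alveolar growth during pregnancy, and large T antigen is known to bind RB.

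The 250 bases before the transcription start of 4 members are printed here, since they include 3 members that rose in the transgenic glands described below and a D-type cyclin that was not called. The sequences come from the RefSeq promoter table of build GRCm38.p6, which holds 6 of the 10 members in 7 windows. In capitals stand matches on either strand to an E2F word (TTTCGCGC, TTTGGCGC, TTTCCCGC or TTTGCCGC), to TTTGAA, the core of the element called CHR (cell cycle genes homology region), and to CCAAT. The windows are chr10:69352913-69353162 on the minus strand for Cdk1, chr9:70421555-70421804 on the minus strand for Ccnb2, chr10:128705052-128705301 on the minus strand for Cdk2 and chr17:47504801-47505050 on the plus strand for the upstream start of Ccnd3.
Cdk1: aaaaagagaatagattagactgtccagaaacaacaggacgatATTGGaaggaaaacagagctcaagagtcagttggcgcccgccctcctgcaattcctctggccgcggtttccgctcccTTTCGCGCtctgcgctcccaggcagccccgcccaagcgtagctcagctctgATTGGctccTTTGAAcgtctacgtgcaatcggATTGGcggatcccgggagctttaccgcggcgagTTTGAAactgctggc
Ccnb2: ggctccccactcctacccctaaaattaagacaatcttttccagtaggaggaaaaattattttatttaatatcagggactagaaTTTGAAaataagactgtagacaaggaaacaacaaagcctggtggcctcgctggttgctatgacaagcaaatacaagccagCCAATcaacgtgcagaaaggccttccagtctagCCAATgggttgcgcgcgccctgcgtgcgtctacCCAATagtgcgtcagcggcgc
Cdk2: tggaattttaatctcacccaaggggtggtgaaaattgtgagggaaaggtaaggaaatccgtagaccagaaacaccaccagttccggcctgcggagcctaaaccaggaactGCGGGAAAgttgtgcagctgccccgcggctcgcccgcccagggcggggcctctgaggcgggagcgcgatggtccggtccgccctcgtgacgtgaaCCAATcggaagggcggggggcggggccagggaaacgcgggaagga
Ccnd3: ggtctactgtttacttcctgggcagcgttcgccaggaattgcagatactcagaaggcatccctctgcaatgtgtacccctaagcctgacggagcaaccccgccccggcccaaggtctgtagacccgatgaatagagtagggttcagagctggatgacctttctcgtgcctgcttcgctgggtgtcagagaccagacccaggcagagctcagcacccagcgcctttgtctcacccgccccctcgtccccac
The Cdk1 window held 1 E2F word, 2 copies of TTTGAA and 3 of CCAAT, and the Ccnb2 window held 0 E2F words, 1 TTTGAA and 3 CCAAT. The Cdk2 window held 1 E2F word and 1 CCAAT, and the upstream Ccnd3 window had no match to any of the words. Of the windows not printed, the second of Ccnd3 held 1 CCAAT and those of Ccne1 and Cdk4 had no match. Among 32851 windows of this length, 1.86% held an E2F word, 16% held TTTGAA and 33.8% held CCAAT. The words do not overlap one another in these windows, and a match describes letters, not a bound site.

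All levels are scaled MAS5 signals in intensity units. Signals under a floor of 57.5, the pooled 30th percentile, were set to it before log2 values were taken, and each gene is represented by its brightest probe set in the arrays of a fit. Genes were tested with limma, with Benjamini-Hochberg adjustment over all genes tested, and were called at an adjusted p under 0.05. The labels number the samples but do not describe how they were taken from animals or cultures, so p-values measure only the spread between these samples. The number of arrays limits the precision. In bulk tissue, fewer cells of a type and less RNA per cell cannot be told apart.

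On each array, 67.7% to 72.6% of probe sets lay above the floor. The ratio of 3-prime to 5-prime Gapdh control signal, a measure of RNA integrity, was 0.753 to 0.949 in the lines, 0.969 to 5.63 in tumors, 2.49 to 22.5 in transgenic glands and 2.28 to 40.3 in NMRI glands, and exceeded 10 in glands 1 and 3 of both kinds. The mean log2 signal of 6 markers of lactating alveolar epithelium was 6.29 to 7.70 in lines, 8.30 to 9.55 in tumors, 12.31 to 12.75 in transgenic glands and 13.77 to 14.01 in NMRI glands. For 7 luminal epithelial markers it was 11.71 in ME-A, but 6.31 in ME-B-T/t and 6.71 in ME-B, near the floor of 5.84. The 5 measured T cell markers averaged 8.74 in transgenic gland 2, against 6.70 and 6.95 in the other transgenic glands, and 5 B and plasma cell markers averaged 9.40 there, against 7.48 and 7.54. The 8 skeletal muscle markers averaged 6.80 and 6.87 in transgenic glands 1 and 2, 10.95 in transgenic gland 3 and 10.03 to 11.13 in NMRI glands, and 9.97 in tumor 1 against 5.87 and 5.92 in the other tumors. The 8 macrophage markers averaged 6.38 to 6.49 in lines, 9.71 to 10.12 in tumors, 9.14 to 10.05 in transgenic glands and 8.59 to 8.74 in NMRI glands. The 6 basal and myoepithelial markers averaged 6.55 to 7.27 in tumors and 9.21 to 9.50 in transgenic glands, and 6 adipocyte markers 7.20 to 9.87 in tumors and 10.97 to 11.85 in transgenic glands. The part of RNA integrity and of these cell types in the differences below was not tested beyond 2 kinds of fit. Fits without the doubted glands are given beside the differences. Fits with the Gapdh ratio as a covariate are given with the other processing alternatives.

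**Figure D1:**
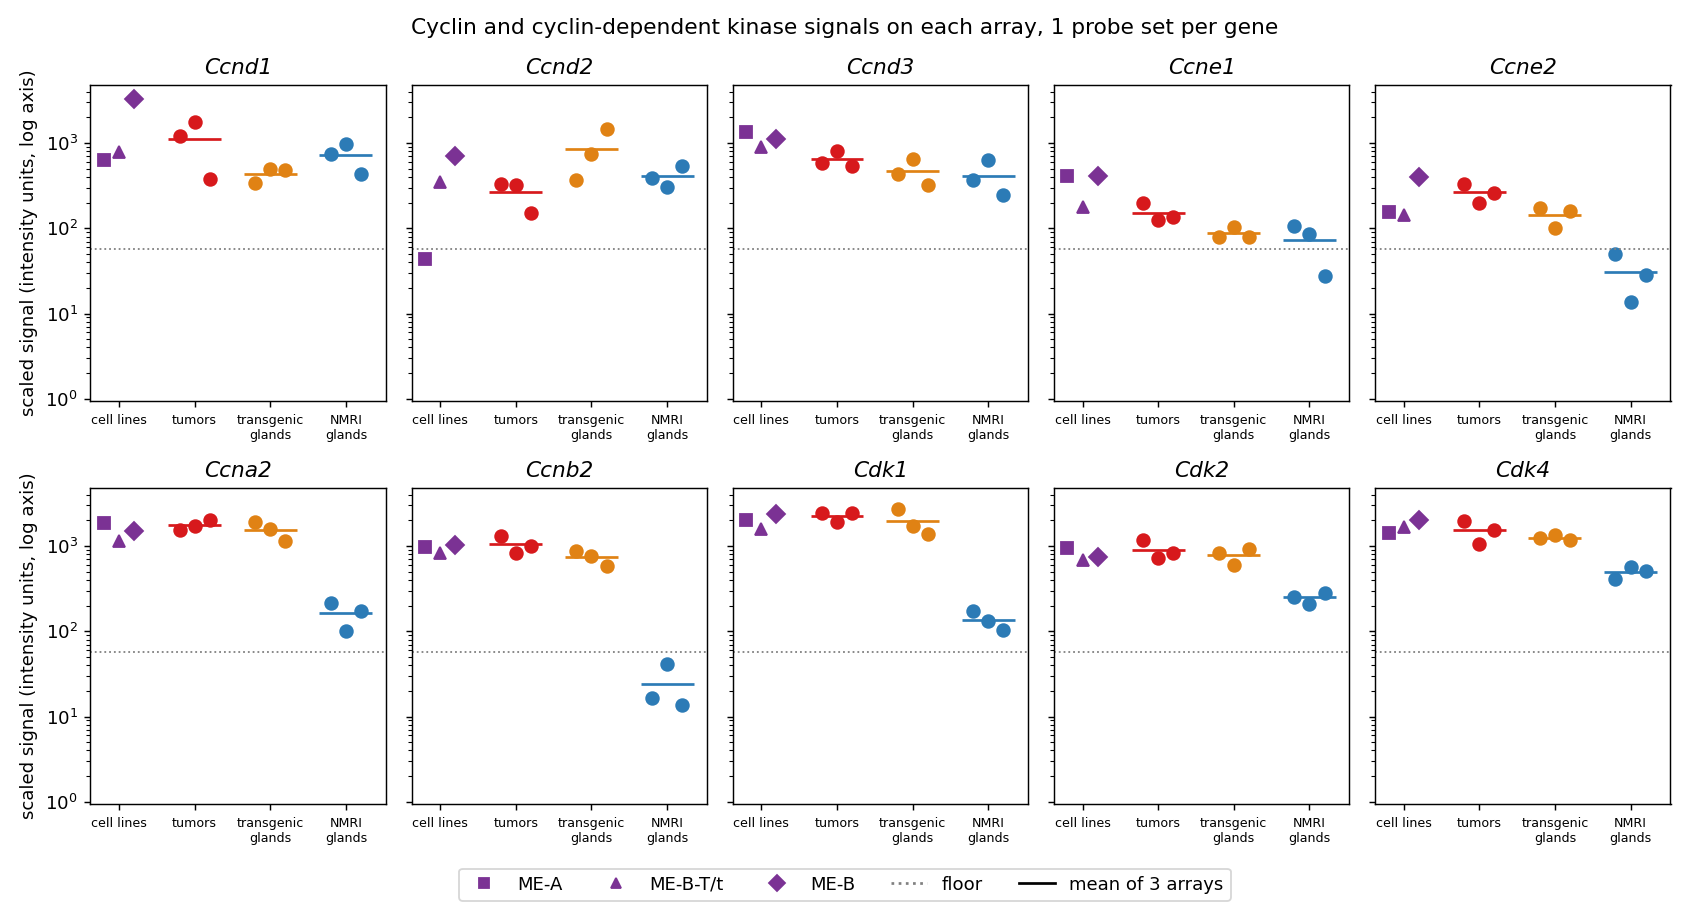
Scaled signal (intensity units, log axis) of each of the 10 genes in every array, by group. Points are single arrays, bars are group means, shown for the tissue groups alone, and the dotted line is the floor of 57.5; Ccnd2 is on its brightest probe set in the tissues. In NMRI glands Ccna2, Ccnb2 and Cdk1 lie between 13.5 and 213, below all other arrays, while transgenic and NMRI glands overlap for Ccnd1, Ccnd2 and Ccnd3.

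Between transgenic and NMRI glands of the same day of lactation, Ccna2, Ccnb2 and Cdk1 were many-fold higher in transgenic glands, and no D-type cyclin was called. The E-type cyclins were not alike, since Ccne1 had a log2 difference of only 0.11 in the fit without the filter on low signals. Of 9 members tested, 6 rose in transgenic glands and 0 fell: Ccne2, Ccna2, Ccnb2, Cdk1, Cdk2 and Cdk4. Among all 7898 genes tested, 6.05% were called higher and 4.03% lower. Ccne2, Ccna2, Ccnb2 and Cdk1 passed the filter on low signals (at least 3 arrays above 139.9) only through the groups in which they are high. No NMRI gland exceeded that level for Ccnb2 and Ccne2, and fewer than 3 did for Ccna2 and Cdk1. Ccne1 did not pass the filter. Without the filter every member has a value: 3 of 4 E-, A- and B-type cyclins and 3 of 3 kinases were called higher, against 0 of 3 D-type cyclins, and 3.16% of all genes were called higher and 2.73% lower. The median log2 differences were then 2.30 for the E, A and B types, 1.64 for the kinases and 0.22 for the D types, beside 0.00 for all genes. Groups did not overlap for 6 of the 9 members, against 31.1% of all genes. The difference between the cyclin classes was itself not tested. Mki67, the proliferation marker that codes for the Ki-67 antigen, was also 25.1-fold higher in transgenic glands (adjusted p = 2.05e-04 by limma), with signals of 4054, 3160.0 and 3254 there against 381, 121 and 53.8 in NMRI glands; the last is under the floor, on which the ratio therefore depends.

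Ccnd1, which partners Cdk4 and Cdk6 in G1, had signals of 336, 492 and 485 in transgenic glands and 737, 988 and 433 in NMRI glands. The lowest NMRI gland lay among the transgenic ones, and the mean was 437 ± 88.2 in transgenic glands against 719 ± 278 in NMRI glands (SD, n = 3 each). The log2 difference was -0.66 ± 0.51 (SE), and it was not called (adjusted p = 0.448 by limma). On the other Ccnd1 probe set tested the groups did not overlap, with 230.1, 437 and 249.8 in transgenic glands against 921, 667 and 547 in NMRI glands, and the log2 difference of -1.25 ± 0.59 was not called either (adjusted p = 0.220). Ccnd2, a D-type cyclin best known in ovary and lymphoid cells, had 365, 737 and 1467 in transgenic glands and 389, 306 and 535 in NMRI glands on its brightest probe set. The transgenic glands spread over a wider range than the NMRI glands, and the lowest of them lay within the NMRI range, so the log2 difference of 0.88 ± 0.48 was not called (adjusted p = 0.268). The 2 transgenic glands with the higher Ccnd2 signals include gland 2, in which the T and B cell markers were high, and gland 3, in which they were not. Ccnd3, the D-type cyclin most widely expressed in differentiated tissues, had 435, 646 and 320.0 in transgenic glands and 373, 626 and 246 in NMRI glands. Its groups covered nearly the same range, and its log2 difference was 0.22 ± 0.37 (adjusted p = 0.758).

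Among the E-type cyclins, Ccne1 had 79.5, 104 and 80.2 in transgenic glands and 107, 85.1 and 27.3 in NMRI glands. Of the 9 tissue arrays, 3 had to exceed the pooled median signal of 139.9 for a test, and for Ccne1 only tumor 1 did, so it has no value in that fit. Fitted without the filter, its log2 difference was 0.11 ± 0.27 (adjusted p = 0.963 by limma). Ccne2 had 174, 102 and 159.5 in transgenic glands, against 49.4, 13.6 and 28.0 in NMRI glands. Every NMRI gland was under the floor, so the gene was at least 2.47-fold higher in transgenic glands (adjusted p = 0.0189). This call was lost without gland 3 of both kinds (log2 difference 1.22, adjusted p = 0.103) and without the 4 glands with a Gapdh ratio over 10 (0.83, adjusted p = 0.649). It was also lost without any single NMRI gland and without transgenic gland 1, with adjusted p of 0.0518 to 0.0737, while the log2 difference was 1.30 without each NMRI gland and 1.15 without transgenic gland 1.

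Ccna2, the cyclin of S phase, had 1936, 1584 and 1162 in transgenic glands, against 213, 101 and 173 in NMRI glands. The lowest transgenic gland was well above the highest NMRI gland, and the gene rose 9.85-fold (log2 difference 3.30 ± 0.31, adjusted p = 6.07e-05 by limma). Its second probe set was called in the same direction. Ccnb2, a cyclin of mitosis, had 876, 762 and 591 in transgenic glands, against 16.7, 41.6 and 13.5 in NMRI glands. All NMRI glands were under the floor, and the gene was at least 12.8-fold higher in transgenic glands (adjusted p = 7.12e-06).

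Among the kinases, Cdk1, which drives mitosis, had 2740.1, 1726 and 1379.5 in transgenic glands, against 173, 131 and 105 in NMRI glands. It rose 14.0-fold (log2 difference 3.81 ± 0.30, adjusted p = 1.64e-05 by limma). The floor sets how Cdk1 and Ccnb2 compare: with a floor at the 10th percentile, the log2 difference was 3.81 for Cdk1 and 5.12 for Ccnb2. Cdk2, the partner of cyclins E and A, had 840.3, 597 and 919 in transgenic glands, against 256, 211 and 283 in NMRI glands, a rise of 3.11-fold (adjusted p = 0.00286). Cdk4, the partner of the D-type cyclins, had 1232, 1342 and 1192 in transgenic glands, against 409, 574 and 505 in NMRI glands, a rise of 2.55-fold (adjusted p = 0.00795). Both kinases thus separated the gland kinds without overlap, by smaller ratios than Cdk1. Without the 4 glands with a Gapdh ratio over 10, where each gland kind keeps 1 array that is taken to vary like the tumors, 3 members were called: Ccna2, Ccnb2 and Cdk1, with log2 differences of 3.97, 3.73 and 3.72. Cdk2 and Cdk4 kept their sign there, at 1.50 (adjusted p = 0.303) and 1.23 (adjusted p = 0.435).

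**Figure D2:**
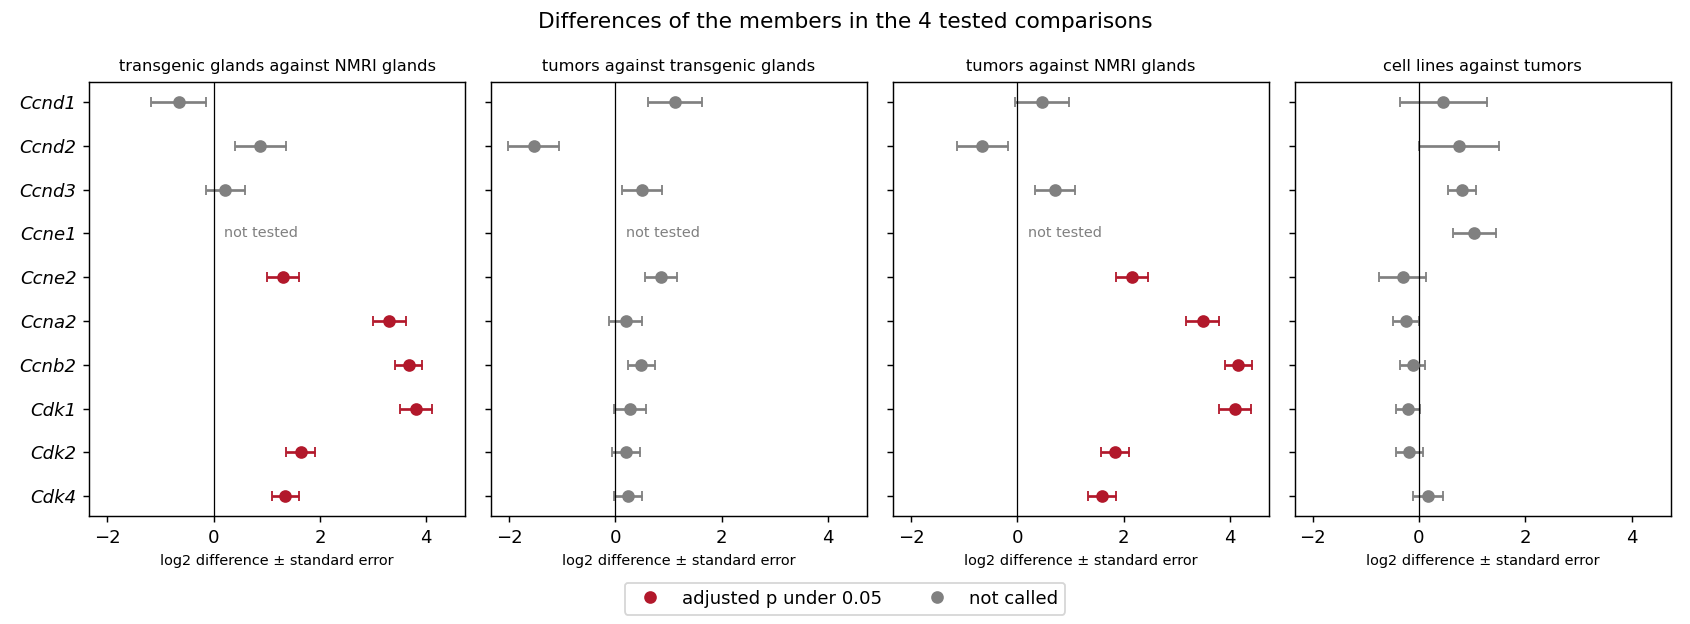
Log2 difference of each gene in the 4 tested comparisons, with bars of 1 standard error from the limma fits, red points where the adjusted p is under 0.05 and grey points elsewhere; Ccne1 has no test in the tissues. In transgenic against NMRI glands Cdk1 lies at 3.81, and Ccne2 at 1.30 and Ccnb2 at 3.67 are lower bounds, since all NMRI glands were under the floor; no member is called for tumors against transgenic glands or for cell lines against tumors.

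Taken probe set by probe set, 16 of the 21 passed the filter in the tissue fit, and 8 of them were called higher and 0 lower in transgenic glands, against 9.16% of all probe sets called in either direction. The 8 cover the same 6 genes. The exception among probe sets of these genes was 1 of the 3 for Cdk4, with an adjusted p of 0.0758. The 7 probe sets of Ccnd2 gave very different levels: 2 of them were under the floor on all 12 arrays, with highest signals of 20.7 and 21.0, while the brightest reached 1467. The 3 probe sets of Ccnd1 had medians over the 12 arrays of 91.8, 689 and 669.7. Levels are compared across arrays, not between probe sets.

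**Figure D3:**
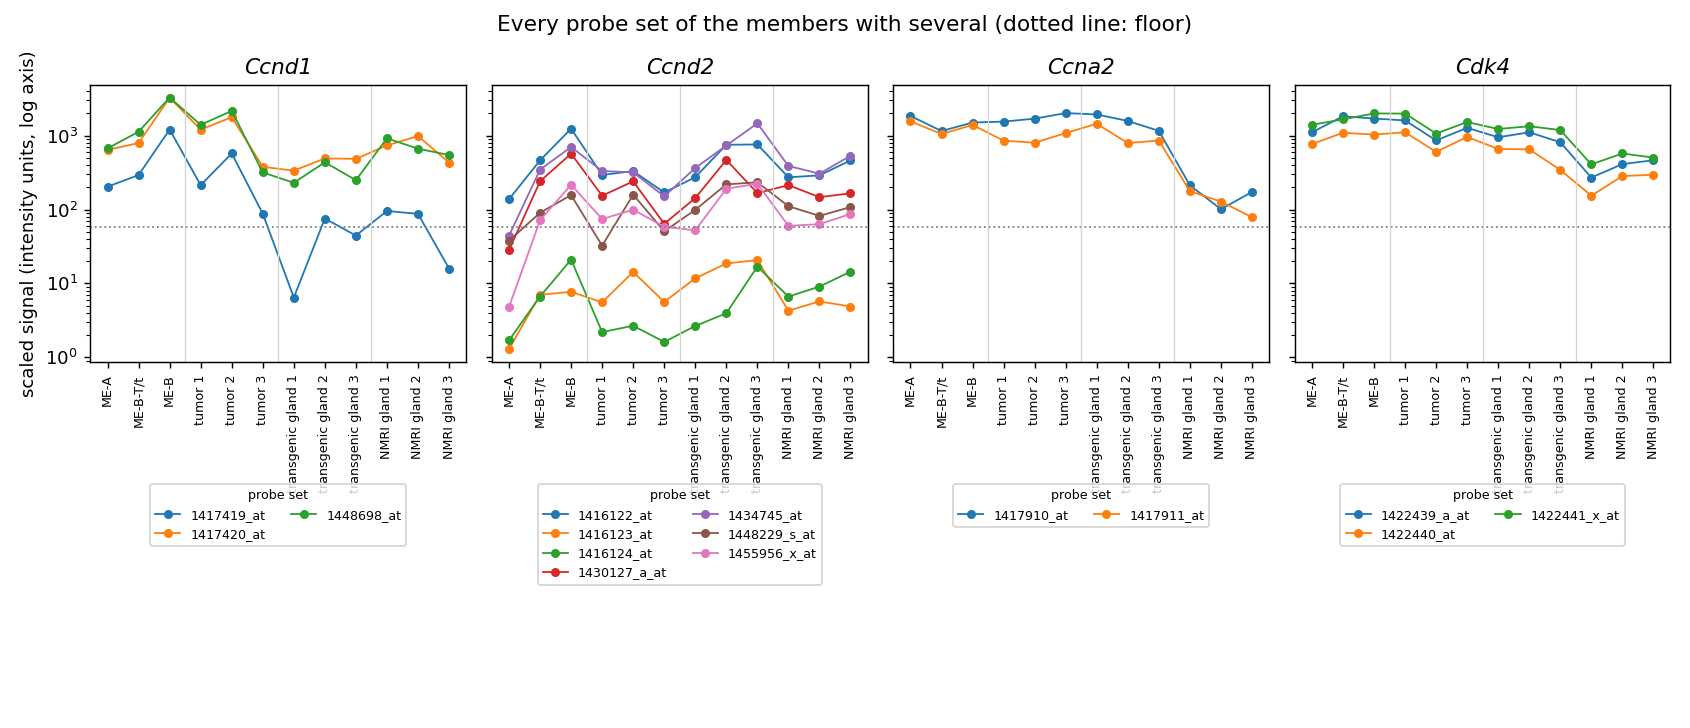
Scaled signal (intensity units, log axis) of every probe set of the 4 genes that have several, array by array, with the dotted line at the floor of 57.5; lines join the points of a probe set as a guide and stand for no order of samples. For Ccnd2, 2 probe sets lie under the floor on all 12 arrays, and for Ccnd1 all 3 probe sets are highest in ME-B.

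Tumors and transgenic glands carry the same transgene, and between them 0 of the 9 members tested were called, against 1.24% of all genes called higher and 1.71% lower by limma. At an unadjusted p under 0.05 there were 2, Ccnd2 and Ccne2, where 1296 of all 7898 genes tested reached it. Ccnd2 and Ccne2 were also the 2 of 9 whose groups did not overlap, a share near the 19.7% of all genes. This comparison shares the transgenic glands with the one above. None of the 16 probe sets tested was called, against 2.31% of all probe sets.

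Ccnd1 and Ccnd2 had the greatest log2 differences of the 9 members here, in opposite directions. Ccnd1 had 1208, 1780.2 and 379 in tumors, against 336, 492 and 485 in transgenic glands. Tumors 1 and 2 lay above every transgenic gland and tumor 3 among them, so that the log2 difference of 1.12 ± 0.51 was not called (adjusted p = 0.305 by limma). Without tumor 3 it was 1.77 and was called (adjusted p = 0.0364). On the other tested probe set the log2 difference was 1.76 ± 0.59 with all tumors in (adjusted p = 0.188). Ccnd2 had 332, 319 and 151 in tumors, against 365, 737 and 1467 in transgenic glands. All tumors lay below all transgenic glands, but gland 1 by little, and the log2 difference was -1.54 ± 0.48 (adjusted p = 0.130). The other 3 Ccnd2 probe sets tested had groups that overlap, with log2 differences of -1.08, -0.75 and -1.09. Without 1 transgenic gland at a time the value lay between -2.04 and -1.04. Ccnd3 had 577, 815 and 536 in tumors against 435, 646 and 320.0 in transgenic glands, which overlap (log2 difference 0.50, adjusted p = 0.553).

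Ccne2, Ccna2, Ccnb2, Cdk1, Cdk2 and Cdk4 lay above every NMRI gland on every array of both groups, while Ccne1 in transgenic glands did not. Mki67 had 2665, 2300.1 and 2715 in tumors, all below the 4054, 3160.0 and 3254 of transgenic glands (log2 difference -0.44, adjusted p = 0.724 by limma). Cdk1 had 2478, 1917 and 2434 in tumors, with a mean of 2276 ± 312 there against 1949 ± 707 in transgenic glands (SD, n = 3 each), and a log2 difference of 0.28. Ccna2 had 1551, 1700.3 and 2024 in tumors, with a log2 difference of 0.19, and Ccnb2 had 1315, 834 and 991, with 0.49. Ccne2 had 333, 196 and 262 in tumors, all above the transgenic glands, and a log2 difference of 0.86 ± 0.30 that was not called (adjusted p = 0.177 by limma). Cdk2 at 1179, 729.9 and 821 and Cdk4 at 1991, 1069 and 1529 in tumors overlapped with transgenic glands, and their log2 differences were 0.20 and 0.24. Ccne1, with 196, 126 and 137 in tumors, differed from transgenic glands by 0.78 ± 0.27 in the fit without the filter (adjusted p = 0.321).

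Set against NMRI glands, the tumors had the same 6 members called higher and 0 lower, where 12.9% of all genes were called higher and 11.7% lower. These are the same tumors and NMRI glands as in the other comparisons, so the values are given beside those and not as further support. Ccne2, Ccna2, Ccnb2 and Cdk1 passed the filter on low signals only through the groups in which they are high. Without the filter, 3 of 4 E-, A- and B-type cyclins and 3 of 3 kinases were called higher, against 0 of 3 D-type cyclins. Of all 12393 genes, 862 were then called higher and 959 lower. Ccnb2 was at least 17.9-fold higher in tumors (adjusted p = 2.40e-06 by limma), Cdk1 17.0-fold (adjusted p = 7.66e-06) and Ccna2 11.3-fold (adjusted p = 2.32e-05). Ccne2 was at least 4.48-fold higher (adjusted p = 5.08e-04), Cdk2 3.59-fold (adjusted p = 7.08e-04) and Cdk4 3.02-fold (adjusted p = 0.00156). For Ccne2 and Cdk4 the call was lost without the 4 glands with a Gapdh ratio over 10 (adjusted p = 0.0513 and 0.114), with log2 differences of 2.16 and 1.37 there against 2.16 and 1.59 with all glands. Of the D-type cyclins, Ccnd1 had a log2 difference of 0.46, Ccnd2 of -0.66 and Ccnd3 of 0.71, and 0 of the 3 were called (adjusted p = 0.549, 0.341 and 0.184 by limma). The Ccnd3 difference depended on the processing, with values of 0.01 to 0.79 over the other settings, and it was called with the replicate block described below. Groups did not overlap for 6 of 9 members, against 43.9% of all genes, and 9 of 16 probe sets were called higher, against 23.0% of all probe sets called in either direction.

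The partners and regulators of these kinases were listed beside the members, and 24 of the 27 genes of that list had a probe set. In transgenic against NMRI glands, 7 of 21 tested rose and 0 fell, where 6.05% of all genes were called higher and 4.03% lower. The rises include Cdc20, which activates the anaphase-promoting complex (17.8-fold), Cks2, a small subunit of cyclin-dependent kinases (10.3-fold), and Pkmyt1, a kinase that holds Cdk1 inactive (4.53-fold, which depends on the floor, since 2 of 3 NMRI glands were under it). For Ccnf, an F-box cyclin, and Cdc25c, a phosphatase that activates Cdk1, every NMRI gland was under the floor. Their rises were at least 3.01-fold and at least 2.47-fold, and these 2 genes were chosen after their values were seen. Cdc20, Pkmyt1, Ccnf and Cdc25c had NMRI means under 139.9, so they passed the filter on low signals only through the groups in which they are high. The list was not counted without that filter. In tumors against transgenic glands 2 of 21 rose, where 1.24% of all genes were called higher, and both are inhibitors of cyclin-dependent kinases: Cdkn1a, the p21 gene, by 7.02-fold, and Cdkn2a, the gene of p16 and p19ARF, at least 4.98-fold with all transgenic glands under the floor. All NMRI glands were under it for Cdkn2a too, so that gene passed the filter only through the tumors. Cdkn1a spread widely, at 1145 ± 895 in tumors against 134 ± 48.7 in transgenic glands (SD, n = 3 each). In tumors against NMRI glands 13 of 21 rose and 0 fell, where 12.9% of all genes were called higher and 11.7% lower. The rises include Cdc20, Pkmyt1, Ccnf, Cdc25c and Cdkn2a, to which the same limit of the filter applies.

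For the RB and E2F family, 12 of 19 listed genes could be tested in the tissues. In transgenic against NMRI glands 4 of 12 rose and 0 fell, beside the 6.05% and 4.03% of all genes, among them E2f8, an E2F repressor, at least 6.15-fold, Rbl1, the RB relative p107, 5.59-fold, and Tfdp1, the dimer partner of E2F factors, 3.38-fold. Of the 4 called genes, E2f8, Rbl1 and Mybl2 had NMRI means under 139.9 and passed the filter on low signals only through the groups in which they are high. This list was not counted without that filter. In tumors against transgenic glands 0 of 12 were called by limma, beside 1.24% of all genes higher and 1.71% lower. At an unadjusted p under 0.05 there was 1, Rb1, where 1296 of all 7898 genes tested reached it. Against NMRI glands 5 of 12 rose in tumors and 0 fell, beside 12.9% of all genes higher and 11.7% lower. The same limit of the filter applies there to E2f8, Rbl1, Mybl2 and E2f1. Of the growth signals upstream of the D-type cyclins, 0 of 19 tested were called between transgenic and NMRI glands, beside 6.05% of all genes higher and 4.03% lower. Between tumors and transgenic glands 0 of 19 were called, beside 1.24% higher and 1.71% lower. The 2 comparisons had 2 and 2 of the 19 at an unadjusted p under 0.05, where 2072 and 1296 of all 7898 genes tested reached it. Between tumors and NMRI glands 2 of 19 rose and 2 fell, a share near that of all genes (12.9% higher and 11.7% lower). Fgfr1, a growth factor receptor, was 3.26-fold higher and Myc, a growth-promoting transcription factor, 2.40-fold higher in tumors, while Stat5a, the transcription factor of prolactin signalling, was 2.61-fold lower.

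In the 3 lines taken as a class against the 3 tumors, 0 of the 10 members were called by limma, against 0.422% of all genes called higher and 1.88% lower. All 10 could be tested here, and 2 had an unadjusted p under 0.05, where 1230 of all 7345 genes tested did. Ccnd3 had 1336, 904 and 1119.8 in ME-A, ME-B-T/t and ME-B, against 577, 815 and 536 in tumors. All lines lay above all tumors, 1 of 10 members with no overlap against 23.5% of all genes, and the log2 difference was 0.81 ± 0.26 (adjusted p = 0.192). Ccne1 had 409, 176 and 407 in the same lines, against 196, 126 and 137 in tumors, with a log2 difference of 1.04 ± 0.40 (adjusted p = 0.257). Here ME-B-T/t lay below tumor 1 and the other lines above every tumor. Ccnd1, on another probe set that was brightest in this fit, had 673, 1129.7 and 3288 in ME-A, ME-B-T/t and ME-B, against 1403, 2167 and 318 in tumors, and the 2 classes overlapped widely (log2 difference 0.46 ± 0.82). Ccnd2 likewise spread widely (0.75 ± 0.75), and Ccne2 came to -0.31 ± 0.45. The differences of Ccna2, Ccnb2, Cdk1, Cdk2 and Cdk4 were within -0.24 to 0.17, and 0 of 17 probe sets were called, against 2.36% of all. The lines differ from each other and have 1 array each, so this class holds 3 different lines rather than replicates.

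Among the lines, Ccnd1 and Ccnd2 were lower in both ME-A and ME-B-T/t than in ME-B, and so was Ccne2. With 1 array a line there is no test, and a ratio of 2-fold is the mark used. Between ME-B-T/t and ME-B 0 members were higher and 4 lower by that mark (Ccnd1, Ccnd2, Ccne1 and Ccne2), where 7.47% of 7925 genes were higher and 5.03% lower. Between ME-A and ME-B 0 were higher and 3 lower (Ccnd1, Ccnd2 and Ccne2), where 11.1% of genes were higher and 8.82% lower. Both pairs share the ME-B array, so a high or low value there enters both. The median log2 difference of the 10 members was -0.47 for ME-B-T/t against ME-B, beside 0.03 for all genes, and -0.15 for ME-A against ME-B, beside 0.00.

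Ccnd1 had a signal of 642 in ME-A and 795 in ME-B-T/t, against 3264 in ME-B, which is 5.08-fold and 4.11-fold lower. The ME-B value is the highest of all 12 arrays for this gene, and all 3 probe sets showed the order, with ratios of 4.89 to 5.95 for ME-A and 2.91 to 4.14 for ME-B-T/t. Ccnd2, on the probe set brightest in the lines, had 138 in ME-A and 463 in ME-B-T/t, against 1243 in ME-B. It was 9.02-fold lower in ME-A and 2.68-fold lower in ME-B-T/t, and on the probe set used for the tissues ME-A was under the floor at 44.1. Over the 5 Ccnd2 probe sets that rose above the floor in ME-B, the ratio was 2.73 to 12.2 for ME-A, 4 of them with ME-A under the floor, and 1.74 to 3.02 for ME-B-T/t. Ccnd3 differed little, with 1336 in ME-A, 904 in ME-B-T/t and 1119.8 in ME-B.

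Ccne2 had 155 in ME-A and 143 in ME-B-T/t, against 401 in ME-B, 2.59-fold and 2.80-fold lower. Ccne1 had 409 in ME-A and 176 in ME-B-T/t, against 407 in ME-B, so that ME-B-T/t alone was lower, by 2.32-fold. The E-type cyclins thus did not have the same order of lines. Ccna2 (1852, 1156 and 1506 in ME-A, ME-B-T/t and ME-B), Ccnb2 (983, 831 and 1035), Cdk1 (2002, 1589.6 and 2352), Cdk2 (938, 695 and 746) and Cdk4 (1406, 1661 and 2002) stayed within 2-fold of ME-B in both pairs. Mki67 had 2209.6 in ME-A and 1416 in ME-B-T/t, against 1825 in ME-B.

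**Figure D4:**
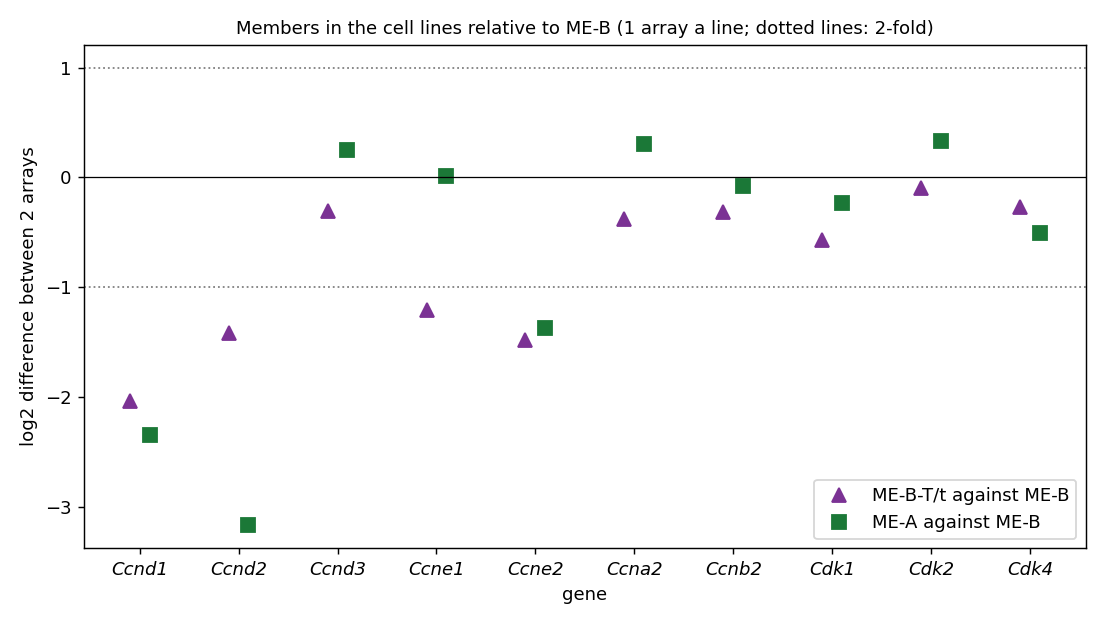
Log2 difference of each gene between 2 arrays, ME-B-T/t against ME-B (triangles) and ME-A against ME-B (squares), with dotted lines at 2-fold and no error, since each line has 1 array. Ccnd1 lies at -2.04 and -2.35 and Ccnd2 at -1.42 and -3.17, while Ccnd3, Ccna2, Ccnb2, Cdk1, Cdk2 and Cdk4 lie within the dotted lines.

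The members differed in which genes had the most similar pattern, measured by Pearson's r of log2 signals over the 12 arrays among the genes tested. These values describe arrays that share groups, and no p is given. For Ccnb2 and Cdk1 the 3 most similar genes were the same: Pclaf, Top2a and Bub1b, with r of 0.995, 0.994 and 0.993 for Ccnb2 and 0.992, 0.991 and 0.990 for Cdk1. Top2a codes for topoisomerase II alpha and Bub1b for a kinase of the spindle checkpoint. Ccna2 was most like Birc5, the survivin gene (0.992), Cdk2 most like Timeless (0.981), Cdk4 most like Nuf2, a kinetochore gene (0.965), and Ccne2 most like Ruvbl1 (0.954). Ccnd1 was most like Map2k3, a MAP kinase kinase gene (0.881), Ccnd2 most like Ablim1 (0.899), Ccnd3 most like Mlf2 (0.963) and Ccne1 most like Mad1l1, a spindle checkpoint gene (0.942).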

How the data were processed

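Single-color arrays with 22690 probe sets held the RNA of 9 tissues and 3 cell lines. The authors deposited linear intensity values, computed with MAS5 per the submitters' processing notes. The MAS5 version and settings are not given in the sources consulted. For each array a trimmed mean was taken, leaving out 2% of probe sets at either end, and all arrays were brought to the average of these means, which had differed by up to 1.19-fold. Of the probe sets, 64 controls, 691 with several genes and 1555 with no gene were left out. Genes entered a fit where at least 3 arrays exceeded the pooled median of 139.9. The tests were two-sided, by limma 3.58.1 in R 4.3.3 (lmFit and eBayes with an intensity trend). Residual degrees of freedom were 6 for the joint fit of 9 tissue arrays and 4 for lines against tumors. The procedure was tested on simulated data with independent noise on each array, so that test does not cover deviations shared between glands.

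The members and gene lists were chosen with earlier results of these data known. Named genes of a list are the called ones with the 3 greatest ratios, and the 3 most similar genes are by Pearson's r. A numbered gland of 1 kind deviated from its group mean together with the same-numbered gland of the other kind (correlations of 0.22, 0.37 and 0.37 over genes). The main fits were unpaired. Only an alternative fit with a replicate block, a term for the sample number, took the numbers to pair transgenic and NMRI glands. This pairing comes from the data, and the labels do not state it. In NMRI and transgenic glands, the Gapdh ratios were 12.9 and 10.7 for gland 1, 2.28 and 2.49 for gland 2, and 40.3 and 22.5 for gland 3. The part of RNA integrity in the correlations was not tested. Tumors were not paired with glands by this check. Alternatives were other scalings, floors, filters and probe set rules, a replicate block, the Gapdh ratio as a covariate, and fits without single arrays.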

Additional observations from a re-analysis of the deposited data

How the results depend on the processing

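Over the alternatives run, the 6 calls for transgenic against NMRI glands kept their direction, and Ccna2, Ccnb2 and Cdk1 kept their calls (adjusted p at most 0.0417, 0.0464 and 0.0417). The call of Ccne2 was also lost with all 12 arrays in 1 fit (adjusted p = 0.0580). With the replicate block, members called stayed at 6 for transgenic against NMRI glands, with no call changed. They came to 7 for tumors against NMRI glands, where Ccnd3 was added (adjusted p = 0.0435 by limma). The block also joined tumors to same-numbered glands, which the pairing check did not pair, so the added call rests on an arbitrary pairing. Without the 4 glands with a Gapdh ratio over 10, members called for transgenic against NMRI glands numbered 3, and genes called were 27 there, 372 for tumors against NMRI glands and 0 for tumors against transgenic glands; few arrays remain in that setting, which was added after seeing the data, as was the next. Without gland 3 of both kinds, genes called for tumors against transgenic glands numbered 93. For that comparison they numbered 71 without a filter, 131 with all 12 arrays in 1 fit and 101 with the Gapdh ratio as a covariate, against 233; for lines against tumors 91, 430 and 54, against 169. Leaving out 1 array at a time gave 394 to 739 genes for transgenic against NMRI glands, 1227 to 1528 for tumors against NMRI glands, 69 to 230 for tumors against transgenic glands with 0 to 1 members, and 0 to 783 for lines against tumors. With signals as deposited, the median log2 difference of all genes for transgenic against NMRI glands was 0.11, against 0.01, and 584 genes were higher and 236 lower, against 478 and 318.

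Signs changed only for differences that were not called. Under added or covariate settings, Ccnd1 in tumors against NMRI glands came to -0.08 without the 4 glands, Ccnd3 in tumors against transgenic glands to -0.10 with the covariate and -0.03 without the 4 glands, and Ccna2 there to 0.00 without gland 3 of both kinds. For lines against tumors, Ccna2 came to 0.15 with the mean of its probe sets, and Ccnb2 to 0.10 and Cdk2 to 0.08 with the covariate. Without 1 array at a time, Ccna2 in tumors against transgenic glands ranged from 0.00 to 0.37, Ccnd1 in tumors against NMRI glands from -0.01 to 1.11 and Ccnd3 in transgenic against NMRI glands from -0.11 to 0.57. For lines against tumors the ranges were -0.27 to 0.06 for Ccnb2, -0.36 to 1.02 for Ccnd1, -0.01 to 1.57 for Ccnd2, -0.32 to 0.02 for Cdk2 and -0.06 to 0.39 for Cdk4. Ccnd2 in ME-B-T/t against ME-B was -0.87, under 2-fold, with the mean of its probe sets. The causes were not tested. Signals near the floor limit Ccne1, Ccne2 and Ccnb2.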

Other observations

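Cyclins and kinases outside the core cell cycle were a separate list, of which 16 of 25 genes were tested in the tissues. Between transgenic and NMRI glands 1 rose and 1 fell: Ccnl1, a cyclin of RNA splicing, was 1.91-fold higher (adjusted p = 0.0311 by limma), and Cdk18 was 3.24-fold lower (adjusted p = 0.00328), a share near that of all genes (6.05% higher and 4.03% lower). Cdk18 averaged 80.4 ± 11.9 in transgenic glands and 263 ± 61.9 in NMRI glands (SD, n = 3 each). It was 5.16-fold higher over the 3 lines, at 367 ± 78.0, than in tumors, at 68.5 ± 16.7 (adjusted p = 0.00791 by limma). That ratio depends on the floor, since 1 of the 3 tumors was under it, and the lines are different lines with 1 array each. With means under 139.9 in transgenic glands and tumors, Cdk18 passed the filter on low signals only through the groups in which it is high. These were the NMRI glands in the tissue fit and the lines in the fit of lines against tumors. Cdk18 was the only gene called of 17 tested from this list, where 0.422% of all genes were called higher and 1.88% lower. In tumors against NMRI glands 2 of 16 genes of the list rose and 1 fell, where 12.9% of all genes were called higher and 11.7% lower. Cdk14 was 4.57-fold higher in tumors (adjusted p = 0.00278 by limma), a ratio that depends on the floor, since 2 of 3 NMRI glands were under it. Its NMRI mean was 56.3, so it too passed the filter only through the groups in which it is high. The list was not counted without that filter.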
